A study of Mus musculus with 6 samples.

Results

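To investigate whether microglial PGC-1α overexpression was accompanied by changes in the transcripts that build autophagosomes, 40 genes of the core autophagosome machinery were followed on gene expression arrays, out of 23462 genes named on the array. The genes were taken from their known roles: the class III PI3K complex, lipid transfer and PI3P binding, the conjugation systems, the ATG8 family, fusion and maturation, and the transcription factor Tfeb. All 40 had at least 1 probe.

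The control group (n = 3) held microglia from PGC-1α f/f mice, which carry a floxed PGC-1α allele linked to IRES-eGFP. The mPGC-1α group (n = 3) held microglia from mice that also carry Cx3cr1-Cre/ER, a tamoxifen-inducible Cre expressed from the Cx3cr1 locus, which is active in microglia and in other myeloid cells. Mice of both groups were labelled as males of 10 weeks on a C57BL/6 background and had acute ischemic stroke (AIS) by transient occlusion of the middle cerebral artery, with littermates as controls, and microglia were selected by their surface receptor P2RY12. The time after stroke of these arrays and the number of mice behind each sample were not given, so the p-values measure the spread between these samples, which may be technical.

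Autophagosomes form when a cup of membrane grows around cargo and closes. The class III PI3K complex makes the lipid PI3P at the growing membrane, PI3P-binding proteins and lipid carriers extend it, and a pair of ubiquitin-like conjugation systems attach ATG8 proteins such as LC3 to it. The closed vesicle then fuses with a lysosome through tethers and SNARE proteins. In microglia this route is known for clearing damaged mitochondria and engulfed material. TFEB is a transcription factor for many of these genes, and PGC-1α is a coactivator that works with nuclear receptors such as ERRα.

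Because TFEB is a member of the machinery and ERRα is a known partner of PGC-1α, the promoters of the members were read for the letters of their elements. RefSeq promoter windows on GRCm38.p6 were at hand for 33 of the 40 members, with 41 windows in all. The letters TCACGTG, the core of the CLEAR element bound by TFEB, stood on either strand in 4 of 41 windows (9.76%), beside 1237 of all 32851 windows of the same length (3.77%). These windows were those of Atg7, Atg14, Rubcn and Atg3. The letters AAGGTCA, the core of the element bound by ERR receptors, stood in 1 of 41 windows (2.44%), that of Atg4a, beside 1550 of all windows (4.72%). A match is a description of these letters and was not measured as binding. The stretches that lie wholly upstream of the start site are shown 5′ to 3′ on the strand of the gene, with the matching letters in capitals.
Atg7, chr6:114670933-114670999, plus strand: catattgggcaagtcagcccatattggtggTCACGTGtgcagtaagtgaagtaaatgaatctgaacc
Rubcn, chr16:32868419-32868485, minus strand: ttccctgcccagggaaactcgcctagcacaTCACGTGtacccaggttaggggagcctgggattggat
Atg3, chr16:45158728-45158794, plus strand: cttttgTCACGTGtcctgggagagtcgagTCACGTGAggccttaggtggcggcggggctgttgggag
Atg4a, chrX:140953640-140953706, plus strand: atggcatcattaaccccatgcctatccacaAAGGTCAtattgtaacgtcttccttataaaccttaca
In Atg3 the second match reads on both strands and overlaps itself.

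Levels are given as log2 of the processed intensity minus the 75th percentile of the array, so that 0 is the upper quartile of an array and 1 unit is a 2-fold change. Differences are mPGC-1α minus control from limma (two-sided, Benjamini-Hochberg over all 40745 tested probes). Between 71.0% and 86.5% of probes were well above background on the 6 arrays, no spot was saturated, and control array 3 and mPGC-1α array 3 shared the second slide. Ppargc1a, the gene of PGC-1α, was at -1.44, -0.94 and -0.93 on control arrays 1, 2 and 3 and at -1.49, -1.27 and -1.54 on the mPGC-1α arrays (difference -0.33, SE 0.24, adjusted p = 0.817 with limma), so that the overexpression given in the labels was not seen with this probe, nor with the second (-0.43). Cx3cr1, at whose locus the Cre was placed, differed by -1.25 (SE 0.24, adjusted p = 0.669 with limma). Control array 2 stood apart from the other 5. Xist, a transcript of female cells, was at -5.21 on control array 2 and between -0.97 and -0.51 on the others. On control array 2 alone, 4 of 7 probes of Y-linked genes were above background. All samples were labelled male, so by these transcripts control array 2 fitted the label and the other 5 arrays did not. For this reason the results below are given with and without control array 2. Markers of microglia were measured on all arrays, with 5 of 11 tested markers higher and 6 lower in mPGC-1α (median difference -0.049). Means in mPGC-1α were higher for 13 of 14 neuronal (median 0.84), 10 of 10 oligodendrocyte (median 0.86), 8 of 9 astrocyte (median 0.95) and 6 of 7 endothelial and mural markers (median 0.21). They were lower for 10 of 11 monocyte and macrophage (median -0.20), 4 of 5 ependymal and choroid plexus (median -0.67) and 4 of 7 neutrophil markers (median -0.025). No marker of any list reached an adjusted p of 0.05 with limma. At an unadjusted p of 0.05, 8 neuronal, 4 oligodendrocyte, 4 astrocyte and 1 endothelial and mural marker were higher. Lower at that threshold were 1 microglia marker (Cx3cr1), 1 monocyte and macrophage marker (Arg1, by -2.22, SE 0.45) and 2 ependymal and choroid plexus markers. No neuronal, oligodendrocyte or astrocyte marker was below background on every array. The summed linear level of the neuronal markers, relative to the 75th percentile, was between 35.0 and 55.9 on control and between 53.6 and 64.6 on mPGC-1α arrays. That of 8 oligodendrocyte markers was between 7.23 and 14.0 and between 15.4 and 26.9. That of the 9 astrocyte markers was between 8.03 and 12.2 and between 13.2 and 42.6. Snap25, between 4.84 and 5.69 on the 6 arrays, made up most of each neuronal sum and differed by 0.28 (SE 0.21). Aldoc and S100b, at 4.33 and 3.75 on mPGC-1α array 2, made up most of the astrocyte sum there. In these bulk samples, a different number of cells of a type and a different amount of RNA per cell cannot be told apart.

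In microglia of the mPGC-1α mice, the transcripts of the core machinery lay on both sides of those of the PGC-1α f/f mice, and the group contrast passed the test for none of them. Of the 39 members with a tested probe, 20 were higher and 19 lower by their brightest probe, with a median difference of 0.018 (quartiles -0.15 and 0.29). All 18222 tested genes had a median of 0.088 (quartiles -0.13 and 0.26), with 61.7% of them above 0, and 18 members lay above that median and 21 below it. No member reached an adjusted p of 0.05 (smallest 0.669 with limma), nor did any of the 40745 probes (background 0%), of which 7.15% had an unadjusted p below 0.05. At an unadjusted p of 0.05 with limma, 3 members were lower, Wdr45b, Pik3c3 and Rab7, and 0 were higher, against a background of 5.94% of genes, 2.97% in each direction. With the replicate number as a block, 5 members had such a p, all lower (background 5.39% lower and 4.55% higher), the added ones being Becn1 and Map1lc3a, and none was called, as 0.00549% of genes were. The values of the groups did not overlap for 7 members (17.9%), all of them higher in mPGC-1α, against a background of 8.75% of genes, and for 0 members in the lower direction, against 3.84%. In all, 2 members differed at least 2-fold, Wdr45b and Becn1, with 3.25% of genes differing so. The median SE of a member was 0.24, so that a difference of the size of most members was not detectable with 3 arrays a group.

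**Figure D1:**
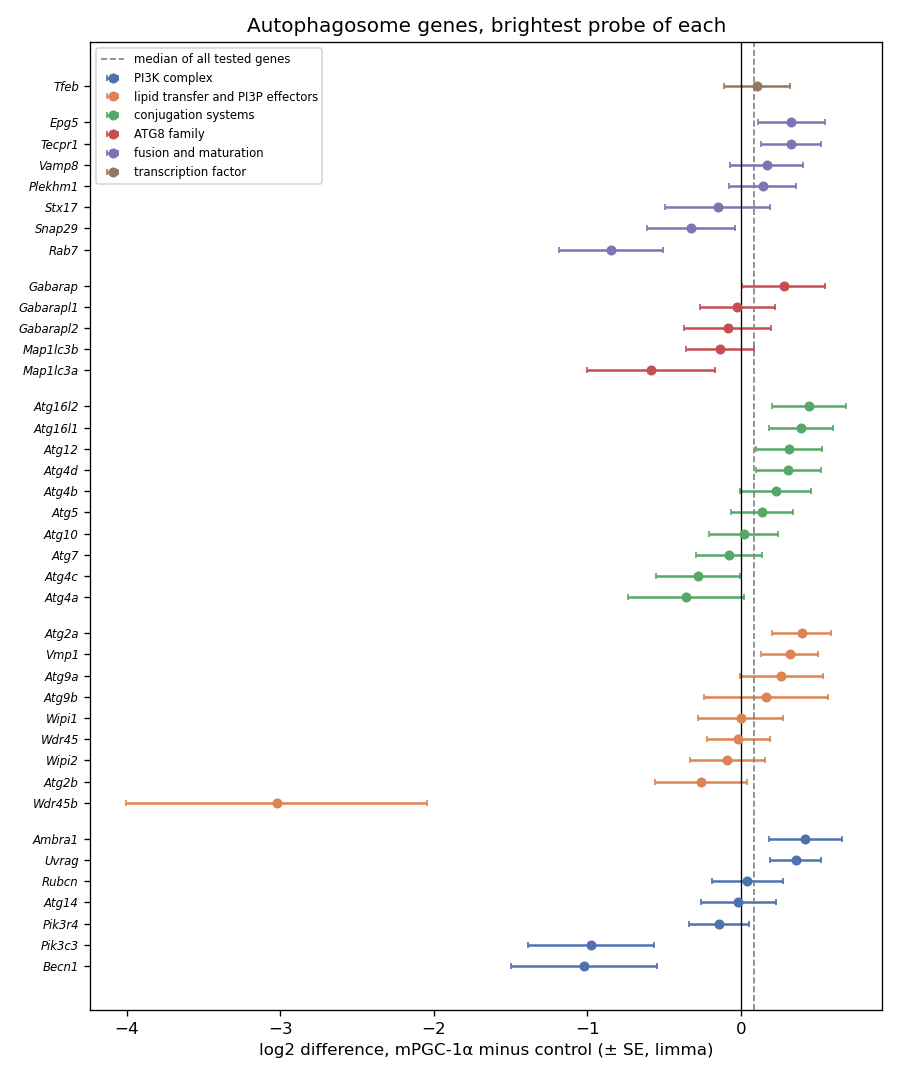
Log2 difference (mPGC-1α minus control) of the brightest probe of each of the 39 tested members, coloured by role, with bars of 1 SE from limma (3 arrays a group). The solid line is 0 and the dashed line the median of all tested genes, 0.088; Wdr45b at -3.02, Becn1 at -1.02, Pik3c3 at -0.97 and Rab7 at -0.84 lie farthest to the left, while no member lies above 0.44.

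Among the members of the class III PI3K complex, 3 of 7 were higher and 4 lower. Becn1, the scaffold on which the complex assembles, was at 0.84, -1.20 and 0.65 on control arrays 1, 2 and 3 and at -1.18, -0.89 and -0.70 on mPGC-1α arrays 1, 2 and 3. Control arrays 1 and 3 were high, and control array 2 was the lowest of all 6, so the groups overlapped. The difference was -1.02 (SE 0.48, unadjusted p = 0.0599, adjusted p = 0.715 with limma, exact permutation p = 0.4), a 2.03-fold lower mean. Pik3c3 (VPS34), the catalytic subunit that makes PI3P, was at 0.73, -0.78 and 1.00 on the control arrays and at -0.72, -0.67 and -0.58 on the mPGC-1α arrays. Control arrays 1 and 3 were high here too, with control array 2 below every mPGC-1α array. The difference was -0.97 (SE 0.41, unadjusted p = 0.0409, adjusted p = 0.686 with limma, exact permutation p = 0.4). Within the slides, Becn1 differed by -0.86 on the first and by -1.35 on the second, and Pik3c3 by -0.67 and by -1.59.

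The partners that direct or restrain the complex lay nearer to 0 or above it. Uvrag, which takes the complex to endosomes and late autophagosomes, was at 3.35, 3.26 and 3.55 on the control arrays and at 3.69, 3.77 and 3.77 on the mPGC-1α arrays. All 3 mPGC-1α values lay above all 3 control values, with a difference of 0.36 (SE 0.17, adjusted p = 0.716 with limma). Ambra1, a scaffold that binds Beclin 1, was at 1.35, 1.77 and 1.49 on the control arrays and at 1.78 and 2.12 on mPGC-1α arrays 1 and 2, its spot being marked as an outlier on array 3. Its highest control and lowest mPGC-1α values nearly met, without overlap, and the groups differed by 0.42 (SE 0.24). Differences of the others were -0.14 for Pik3r4 (VPS15), the regulatory subunit, -0.017 for Atg14, which takes the complex to the forming autophagosome, and 0.042 for Rubcn, an inhibitor of the complex that holds UVRAG.

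Among the lipid carriers and PI3P-binding proteins, 4 of 9 were higher and 5 lower, and the widest difference of all members was found here. Wdr45b (WIPI3), a PI3P-binding propeller protein, was at 0.81, -3.54 and 0.83 on the control arrays and at -3.42, -3.79 and -3.75 on the mPGC-1α arrays. Its level on control arrays 1 and 3 was thus far above the other 4 arrays, which lay between -3.79 and -3.42. The difference was -3.02 (SE 0.98, unadjusted p = 0.0124, adjusted p = 0.669 with limma, exact permutation p = 0.2), an 8.13-fold lower mean. It was well above background on all 6 arrays and differed by -2.24 on the first slide and by -4.58 on the second. Of the related propellers, Wdr45 (WIPI4) differed by -0.016, Wipi1 by -0.00015 and Wipi2, which recruits the conjugation machinery, by -0.090.

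Of the carriers that feed lipid into the growing membrane, 4 of 5 had higher means in mPGC-1α. Atg2a, a lipid transfer protein, was at 0.60, 0.90 and 0.94 on the control arrays and at 1.17, 1.23 and 1.24 on the mPGC-1α arrays. Vmp1, a scramblase of the endoplasmic reticulum, was at 1.92, 2.12 and 2.19 on the control arrays and at 2.30, 2.31 and 2.58 on the mPGC-1α arrays. For both genes the groups did not overlap, with differences of 0.40 (SE 0.19) and 0.32 (SE 0.18) and adjusted p-values of 0.730 and 0.773 with limma. Atg9a, the scramblase of the seed vesicles, was at -1.88, -1.89 and -2.47 on the control arrays and at -1.64, -2.05 and -1.76 on the mPGC-1α arrays. Its groups overlapped (difference 0.26, SE 0.27). Atg9b differed by 0.16 and Atg2b by -0.26.

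**Figure D2:**
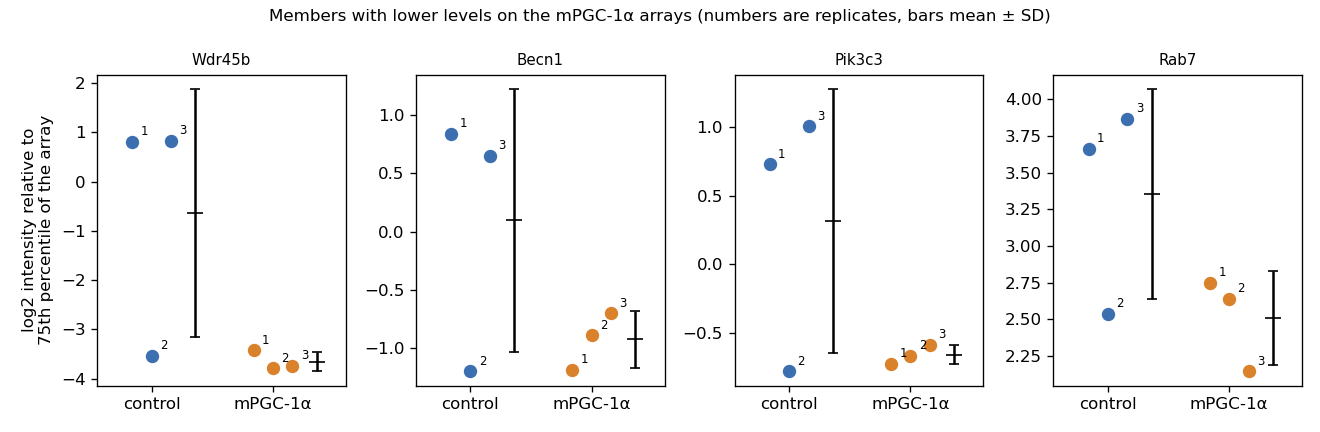
Log2 intensity relative to the 75th percentile of the array for Wdr45b, Becn1, Pik3c3 and Rab7, with 1 point for each of the 3 control and 3 mPGC-1α arrays, numbered by replicate, and bars of mean ± SD; the vertical axes differ between panels. In each panel control arrays 1 and 3 lie above the mPGC-1α arrays, while control array 2 lies among or below them for Wdr45b (-3.54), Becn1 (-1.20), Pik3c3 (-0.78) and Rab7 (2.54).

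In the conjugation systems, 7 of the 10 tested members were higher and 3 lower, with a median of 0.18. Atg16l1, which sets the place where LC3 is attached, was at 0.37, 0.58 and 0.16 on the control arrays and at 0.58, 0.85 and 0.86 on the mPGC-1α arrays. The lowest mPGC-1α value lay just below the highest control value, so the groups overlapped, with a difference of 0.39 (SE 0.21, adjusted p = 0.750 with limma). Its relative Atg16l2 was at -1.30, -1.13 and -1.63 on the control arrays and at -0.68, -1.05 and -1.004 on the mPGC-1α arrays. These groups did not overlap (difference 0.44, SE 0.24, adjusted p = 0.758 with limma), whereas its dimmer probe differed by -0.11. Atg5, which joins ATG12 and ATG16L1 in 1 complex, was at -0.25, -0.03 and -0.19 on the control arrays and at 0.07, -0.14 and 0.00 on the mPGC-1α arrays. Atg7, the E1-like enzyme of both systems, was at 0.89, 1.21 and 0.96 on the control arrays and at 0.66, 1.20 and 0.97 on the mPGC-1α arrays. Both overlapped, with differences of 0.14 (SE 0.20) for Atg5 and -0.076 (SE 0.22) for Atg7, whose second probe gave 0.10.

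The ubiquitin-like Atg12 differed by 0.31 and Atg10, the E2-like enzyme that transfers it, by 0.018. The ATG4 proteases, which trim ATG8 proteins and release them from membrane, were mixed, with Atg4d at 0.31, Atg4b at 0.23, Atg4c at -0.28 and Atg4a at -0.36. None of these 6 passed the test. Atg3, the E2-like enzyme of the ATG8 proteins, had no test because its probe was marked as an outlier on 4 of 6 arrays. The remaining values were 1.19 on control array 1 and 1.21 on mPGC-1α array 2, and with marked spots kept its difference was -0.11 (SE 0.23).

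**Figure D3:**
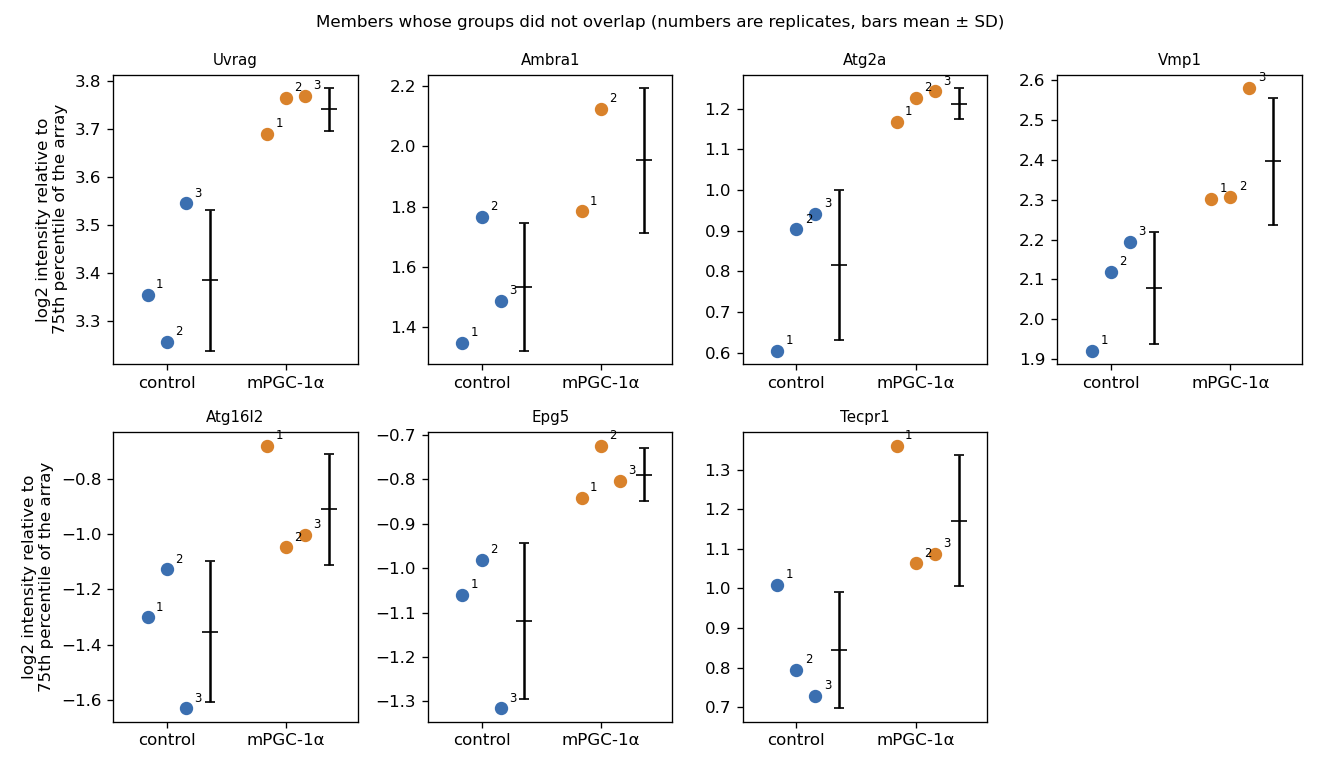
Log2 intensity relative to the 75th percentile of the array for the 7 members whose groups did not overlap, with 1 point per array, numbered by replicate, and bars of mean ± SD; the vertical axes differ between panels, and Ambra1 has 2 mPGC-1α values. All mPGC-1α arrays lie above all control arrays in each panel, by differences between 0.32 for Vmp1 and 0.44 for Atg16l2.

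Of the ATG8 family, the proteins that coat the membrane and bind cargo receptors, 1 of 5 was higher and 4 were lower. Map1lc3a (LC3A) was at 2.06, 2.79 and 2.14 on the control arrays and at 0.66, 2.32 and 2.25 on the mPGC-1α arrays. Its low value on mPGC-1α array 1 made up most of the difference of -0.59 (SE 0.42, adjusted p = 0.813 with limma), which was -0.046 without that array. Map1lc3b (LC3B), the member most used to follow autophagosomes, was at 2.08, 2.05 and 2.56 on the control arrays and at 1.83, 2.31 and 2.14 on the mPGC-1α arrays. These groups overlapped, and its 2 probes differed by -0.14 (SE 0.22) and -0.12 (SE 0.25). Gabarap differed by 0.28. Gabarapl2 differed by -0.087 by its brightest probe, with control array 3 and mPGC-1α array 3 marked as outliers and left out. Its other probe, with all 6 values, differed by 0.13 (SE 0.26).

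Gabarapl1 differed between its probes. The brightest was at 1.82, 2.45 and 1.92 on the control arrays and at 1.71, 2.35 and 2.06 on the mPGC-1α arrays, and so differed by -0.022 (SE 0.24). The dimmer probe was at 1.12, -0.20 and 0.71 on the control arrays and at -0.80, -0.86 and -0.64 on the mPGC-1α arrays. Here all mPGC-1α values lay below all control values, with a contrast of -1.31 (SE 0.32, unadjusted p = 0.00265, adjusted p = 0.669 with limma). Of the 15 dimmer tested probes of members this was the only one with an unadjusted p below 0.05, against a background of 12.9% of dimmer probes lower and 1.84% higher. The positions of the probes on the transcript were not analysed here.

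Among the fusion and maturation genes, 4 of 7 were higher and 3 lower. Rab7, the GTPase of late endosomes that brings autophagosomes to lysosomes, was at 3.66, 2.54 and 3.87 on the control arrays and at 2.75, 2.64 and 2.14 on the mPGC-1α arrays. Control arrays 1 and 3 were again high, and control array 2 lay among the mPGC-1α arrays. The difference was -0.84 (SE 0.34, unadjusted p = 0.0327, adjusted p = 0.675 with limma, exact permutation p = 0.3), with -0.41 on the first slide and -1.72 on the second. Its dimmer probe, at 1.69 and 1.06 on control arrays 1 and 2 and at 1.19, 1.47 and 1.23 on the mPGC-1α arrays, differed by -0.076 (SE 0.26), with control array 3 marked as an outlier and left out of its fit.

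Epg5, a tether that binds RAB7 and LC3, was at -1.06, -0.98 and -1.32 on the control arrays and at -0.84, -0.72 and -0.80 on the mPGC-1α arrays. Tecpr1, a tether that binds the ATG12-ATG5 conjugate, was at 1.01, 0.79 and 0.73 on the control arrays and at 1.36, 1.06 and 1.09 on the mPGC-1α arrays. Neither gene had overlapping groups, and both differed by 0.33 (SE 0.22 and 0.20). Stx17, the SNARE of the closed autophagosome, was at -0.81, -1.91 and -0.57 on the control arrays and at -1.18, -1.33 and -1.24 on the mPGC-1α arrays. Its difference was -0.15 (SE 0.34), with the widest spread on the control arrays. The SNARE partners Snap29 and Vamp8 differed by -0.32 and 0.17, and Plekhm1, an adaptor of RAB7, by 0.14.

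Tfeb was at 1.01, 0.82 and 0.50 on the control arrays and at 1.01, 0.70 and 0.93 on the mPGC-1α arrays by its brightest probe, which differed by 0.11 (SE 0.21). The other 2 probes differed by -0.86 (SE 0.56) and -0.54 (SE 0.34). The first of these stood at 0.029 on control array 1 and between -2.67 and -1.85 on the other arrays, so that 1 array set its difference. In all, 14 members had several tested probes, and in 9 of them the probes differed in sign: Tfeb, Gabarapl2, Atg16l2, Atg4b, Atg7, Plekhm1, Atg2b, Wdr45 and Wipi1.

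**Figure D4:**
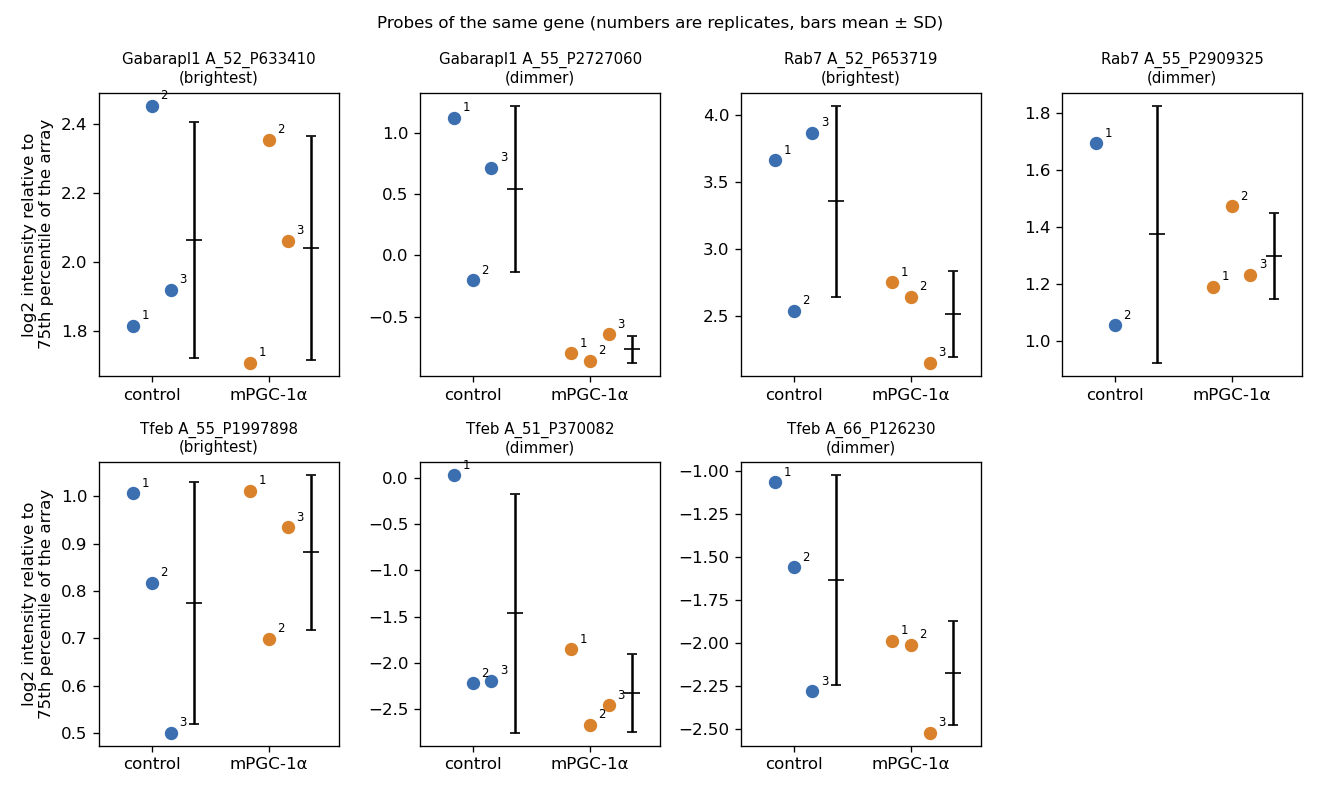
Log2 intensity relative to the 75th percentile of the array for the tested probes of Gabarapl1, Rab7 and Tfeb, with 1 point per array, numbered by replicate, and bars of mean ± SD; the vertical axes differ between panels and levels of different probes are not comparable. The brighter Gabarapl1 probe differed by -0.022 and the dimmer by -1.31, and the Rab7 probes by -0.84 and -0.076.

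The 7 members without overlap were higher in mPGC-1α by 0.32 to 0.44, with an exact permutation p of 0.1 for each of the 6 that had all 6 values (two-sided, 3 against 3 arrays). This is the smallest that the design allows, and it follows from the lack of overlap by which the 7 were taken. Over those same arrays the neuronal, oligodendrocyte and astrocyte markers were also higher in mPGC-1α, and their part in these values was not tested. With the 75th percentile taken over unmarked spots, 4 members had groups that did not overlap, beside 12.3% of genes, and 25 members were higher and 14 lower, beside 70.8% of genes higher and a median of all genes of 0.17.

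The lower means of Wdr45b, Becn1, Pik3c3 and Rab7 came from high values on control arrays 1 and 3, and kept their sign in all 19 alternatives. Whether they passed the test turned on control array 2, the only array that fitted the male label by Xist and the Y-linked probes. Without it, Wdr45b differed by -4.47 (22.2-fold), Becn1 by -1.67 (3.18-fold), Pik3c3 by -1.52 (2.87-fold) and Rab7 by -1.25 (2.38-fold). All 4 then passed the test, with adjusted p-values of 0.000307, 0.00393, 0.00335 and 0.0145 with limma. The array left out held the lowest control value of each of the 4, so its omission widened these differences by construction. It left 2 control arrays, and 2130 probes were called in all. The dimmer Rab7 probe had too few control values for a test there. The 4 were the only ones of the 38 members tested without that array to pass, against a background of 2.69% of genes lower and 0.412% higher. The dimmer Gabarapl1 probe also passed then (difference -1.68, adjusted p = 0.00321 with limma). At an unadjusted p of 0.05, 6 members were then higher (background 12.6%) and 6 lower (background 7.46%), the lower ones being these 4 with Stx17 and Atg4a. The groups of 14 members did not overlap in the higher direction and of 7 in the lower, against 32.2% and 12.2% of genes. The median of the members moved to 0.18 and that of all genes to 0.21.

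A count chosen after these values were seen described that form. Control arrays 1 and 3 both lay at least 2-fold above the other 4 arrays for 3 of the 35 members with all 6 values (Becn1, Pik3c3 and Wdr45b), and for 1.47% of the brightest or only probes of all genes. Among the dimmer probes of genes with several probes the share was 11.04%, and 0 of the 14 dimmer member probes had it. Over all 36995 tested probes, 1300 (3.51%) had this form and 21 the reverse. Control arrays 1 and 3 differed from control array 2 in Xist and the Y-linked probes as well. In Xist, however, the mPGC-1α arrays, between -0.97 and -0.51, lay with control arrays 1 and 3. In the form counted here they lay with control array 2. Whether the origin of these arrays bore on these members was not tested.

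**Figure D5:**
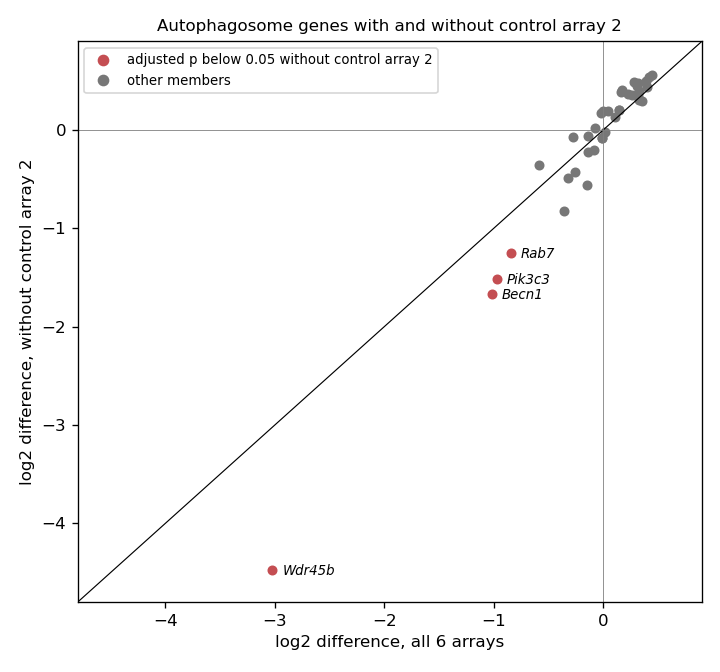
Log2 difference (mPGC-1α minus control) of the members with all 6 arrays (horizontal) and without control array 2 (vertical), 1 point per member with a value in both; the diagonal marks equal values. The 4 named members in red, Wdr45b, Becn1, Pik3c3 and Rab7, lie below the diagonal and had an adjusted p below 0.05 without that array, where Wdr45b differed by -4.47.

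The spread of the members was wider in the control group. The SD over control arrays exceeded that over mPGC-1α arrays for 28 of 35 members (80.0%), beside 68.7% of all genes, with median SDs of 0.30 and 0.17 for the members. No single array was the extreme for most members. Control array 3 was the highest for 9 of 35 members (25.7%, beside 12.8% of all genes) and the lowest for 9 (beside 25.5%). Control array 2 was the highest for 8 (22.9%, beside 33.8%), and mPGC-1α array 2 for 2 (5.71%, beside 15.1%).

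The other genes of the pathway were read from lists of their own, and 0 genes in the 5 lists reached an adjusted p of 0.05 with limma, while 1, Nbr1, had an unadjusted p below 0.05. In the ULK1 complex and its regulators, which start autophagy, 5 of 9 were higher and 4 lower. Ulk1, its kinase, was at -0.62 and -0.17 on control arrays 1 and 2 and at 0.04, 0.11 and -0.11 on the mPGC-1α arrays, with control array 3 marked and left out. The groups did not overlap (difference 0.41, SE 0.26, adjusted p = 0.788 with limma). Rb1cc1 (FIP200), its scaffold, had the smallest p of that list and differed by 0.42 (SE 0.20, adjusted p = 0.718 with limma).

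Of 10 cargo receptors, 4 were higher and 6 lower. Sqstm1 (p62), which links ubiquitin to LC3, was at 3.10, 2.83 and 2.66 on the control arrays and at 3.36 and 3.24 on mPGC-1α arrays 1 and 2, its spot being marked on array 3. These values did not overlap (difference 0.44, SE 0.22, adjusted p = 0.734 with limma). Nbr1, a receptor of similar build, was at -0.046, -1.33 and -0.24 on the control arrays and at -1.07, -1.32 and -1.81 on the mPGC-1α arrays. Control array 2 again lay with the mPGC-1α arrays, for a contrast of -0.86 (SE 0.36, unadjusted p = 0.0393, adjusted p = 0.686 with limma). In the HOPS complex and other tethers and SNAREs, 7 of 11 were higher and 4 lower, with the smallest p for Vps18 at 0.33 (SE 0.20). Of 18 tested lysosomal genes known as TFEB targets, 9 were higher and 9 lower, with the smallest p for Sgsh at 0.32 (SE 0.22). The TFEB family and its regulators were split 4 to 3, with the smallest p for Tfe3 at 0.30 (SE 0.19).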

How the data were processed

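Microglia RNA of 3 PGC-1α f/f and 3 mPGC-1α samples was hybridised by the authors to 1-colour Agilent mouse arrays. The deposited scanner files hold linear intensity per spot from Feature Extraction 11.5.1.1, background-subtracted and not normalized between arrays. The authors' deposited series matrix holds log2 values of 46731 probes, normalized in GeneSpring, with medians that agree between arrays within 0.00235 and a correlation with the log2 processed signal of at least 0.999. Cy3 and Cy5 are both named as the dye in the labels, and the files hold 1 channel, which was used. Arrays have no read depth, and their number limits the precision.

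Levels were log2 processed signal minus the 75th percentile of each array over its 59305 spots that are not controls. Spots marked as outliers, between 549 and 4931 an array, were left out after scaling, so that the scaling did not depend on the marks. Spots of a probe were averaged. Probes needed at least 2 values in each group. In at least 1 group they also had to be well above background on every array with a value, and on at least 2. Of 56605 probes, 40745 were tested. Accessions were matched to RefSeq symbols for 33767 probes (59.7%), and the brightest tested probe stood for a gene. Groups were compared with limma 3.58.1 (lmFit, eBayes with trend) in R 4.3.3, tested on simulated data first, and single values with the exact permutation test.

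Same-numbered samples of the 2 groups deviated together, with correlations of 0.247, 0.224 and 0.171 over tested probes and between -0.337 and 0.035 for other pairs. Because values were centred within each group, positive values for some pairs go with negative ones for others. The main fit held the group only, and a fit with the replicate number as a block was run as an alternative. The possible pairing comes from the data, since the labels give only the number. Values on all arrays are given for members whose groups did not overlap or with an unadjusted p below 0.05, filled to 12 by p, for 12 members that define a step, and for other probes with an unadjusted p below 0.05; those of the dimmer Rab7 and Tfeb probes were added after their values were seen. The members and lists were chosen with earlier results of these data known. Alternatives changed the scaling, the background correction, the filter, the blocks, the variance model, the marked spots, the probe of a gene and the arrays included. Proteins and probe sequences were not used here.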

Additional observations from a re-analysis of the deposited data

How the results depend on the processing

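With 3 arrays a group, the limma test called 0 of 39 members, and 0 of 40745 probes with 2912 at an unadjusted p below 0.05. Of the 19 alternatives, 3 were chosen after seeing the data: the percentile over unmarked spots, the replicate block with quantile normalization, and leaving out control array 2 with quantile normalization. Leaving out 1 array at a time gave 0 to 2130 probes called, 0 to 4 members called, 0 to 12 members at an unadjusted p below 0.05, 7 to 21 members without overlap and a median member difference between -0.027 and 0.18. The upper ends came from leaving out control array 2, where 125 probes were higher and 2005 lower, and where 3.11% of all genes were called, 20.04% had such a p and 44.4% did not overlap. No other omission called a probe, and in the others between 17.0% and 20.7% of all genes did not overlap. The lower end of 7 members without overlap came from leaving out mPGC-1α array 3, beside 20.7% of genes. The members at an unadjusted p below 0.05 numbered 3 with all arrays (beside 5.94% of genes) and 0 without control array 1 (beside 3.98%). They numbered 1 each without control array 3 (beside 2.87%) and without mPGC-1α array 3 (beside 4.93%). Leaving out mPGC-1α array 1 or mPGC-1α array 2 gave 2 each, beside 3.81% and 4.85% of genes. The median, 0.018 with all arrays, was 0.092 without mPGC-1α array 1 and 0.081 without mPGC-1α array 3. An omission that leaves 2 arrays assumes that they vary like the other group.

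With quantile normalization and without control array 2, 2143 probes and 4 members were called, 9 members had an unadjusted p below 0.05 and 18 did not overlap, beside 3.16%, 18.9% and 42.3% of genes. With the replicate block, for the same-numbered samples, 1 probe was called, 0 members were called and 5 had an unadjusted p below 0.05, beside 9.95% of genes. No member changed its call. The block with quantile normalization called 0 probes and left 4 such members, beside 9.09% of genes. Without the intensity trend, 1 member had such a p, beside 5.38% of genes. With the percentile over unmarked spots, 4 members did not overlap, beside 12.3% of genes, and the median was 0.11. The cause of these shifts was not tested.

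Of the values of named members, 358 kept their sign and side of the threshold, 8 passed the threshold, all of them Wdr45b, Becn1, Pik3c3 and Rab7 without control array 2, and 12 changed sign. Leaving out 1 array at a time, the difference ranged from -0.18 to 0.17 for Gabarapl1 (0.14 without mPGC-1α array 1), from -0.21 to 0.064 for Atg7 (0.020 without control array 2), from -0.56 to 0.11 for Stx17, from -0.030 to 0.22 for Tfeb and from -0.25 to 0.029 for Map1lc3b. The last 3 changed sign without control array 3. As the mean of its probes, Atg7 became 0.013 and Tfeb -0.43. With the percentile over unmarked spots, Gabarapl1 became 0.073 and Atg7 0.019. Without control array 2 under quantile normalization, Gabarapl1 became 0.039.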
